A study of Homo sapiens with 8 samples.

Results

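Untreated LN229-TAZ(4SA) cells in regular culture were compared between 7 h and 1 h, using the 4 of the 8 libraries in the series whose column headings name the control condition at those times, 2 libraries per time. LN229 is an established human glioblastoma cell line, and all libraries of the series come from its TAZ(4SA) derivative. TAZ activates transcription and is held back by the Hippo pathway, and in the 4SA form serines that the LATS kinases phosphorylate are replaced by alanine, so that the pathway restrains it less. Cells were grown in glucose-containing DMEM with fetal bovine serum and, in the 4 libraries compared here, received no AF, a compound the labels name only by this abbreviation. The other 4 libraries are from cells kept without glucose in 1 µM AF for 1 h or 7 h, and serve here only where their change over time is set beside that of regular culture. The labels do not say whether medium was renewed at the start of the times, nor whether libraries of a group came from separate cultures. The p-values therefore measure only the spread between these libraries, and the results describe a single engineered line.

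Cells that are given fresh serum or are handled switch on immediate early genes within minutes, without new protein synthesis. Serum response factor (SRF), CREB, NF-kB and, through TEAD proteins, YAP and TAZ are transcription factors and co-activators that act on their promoters, and many of the products, among them the FOS, JUN, EGR and NR4A proteins, are themselves short-lived transcription factors. Delayed programmes of growth, such as ribosome assembly, nucleotide supply and DNA replication, are known to follow in cells that go on to divide.

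Promoter stretches of 10 genes are shown because they carry letters that these factors are known to read and because the genes changed over the 6 h between the times. They are from RefSeq promoter entries on GRCh38.p14, are written 5′ to 3′ on the gene's strand, end before the annotated start, and have the motif in capitals. EGR1 and SRF each hold 2 copies of the serum response element core, within chr5:138465367-138465412 (plus strand) and chr6:43171229-43171268 (plus strand).
EGR1: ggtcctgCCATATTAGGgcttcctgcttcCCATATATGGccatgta
SRF: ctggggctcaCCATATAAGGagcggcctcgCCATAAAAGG
PPP1R15A holds TGACGTCA, the full cAMP response element, within chr19:48872351-48872380 (plus strand).
PPP1R15A: cgcctctcttcgTGACGTCAgcacgccggg
CCN2 and ANKRD1 hold GGAATG, the core that TEAD proteins bind, with 3 copies and 1 copy, within chr6:131951456-131951547 and chr10:90921201-90921225 (both minus strand). ANKRD1 has a further copy at -220 to -215 from the start, outside the stretch shown.
CCN2: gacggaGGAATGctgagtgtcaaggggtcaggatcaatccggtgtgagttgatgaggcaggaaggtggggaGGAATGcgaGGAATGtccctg
ANKRD1: cactgagtctGGAATGaaaattcac
CXCL1, TNFAIP3 and REL hold NF-kB elements, within chr4:73869303-73869333, chr6:137867187-137867218 and chr2:60881518-60881545 (all plus strand), and matches on the 2 strands may overlap.
CXCL1: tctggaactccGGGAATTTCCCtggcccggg
TNFAIP3: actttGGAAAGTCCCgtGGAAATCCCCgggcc
REL: gtcagccgcGGGAAATTCCCctcccgcc
UTP20 and NAT10, which rose over time, hold CACGTG, the E-box read by MYC and related factors, within chr12:101280075-101280104 and chr11:34105599-34105628 (both plus strand).
UTP20: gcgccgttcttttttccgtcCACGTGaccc
NAT10: tttaatgcgcttgcgCACGTGctgtctacc

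Between 1 h and 7 h in regular culture, large falls outnumbered large rises. Of 13028 genes tested with limma, 8013 (61.5%) had an adjusted p below 0.05, and these were split evenly into 4006 higher (30.7%) and 4007 lower (30.8%) at 7 h. Among those that changed at least 2-fold, 612 (4.70%) were lower and only 202 (1.55%) were higher. At 4-fold or more there were 119 lower and 8 higher genes, and at 16-fold or more 16 lower genes and 1 higher gene. That 1 gene was RNH1, whose 7 h libraries disagreed, at 1.32 and 13.6 CPM. The plot of change by level shows that the deep falls were spread over low and high levels. "Rose" and "fell" below always mean that the gene passed this test. Counts of rises and falls in a gene list are to be read beside the shares of all genes, 30.7% higher and 30.8% lower.

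**Figure D1:**
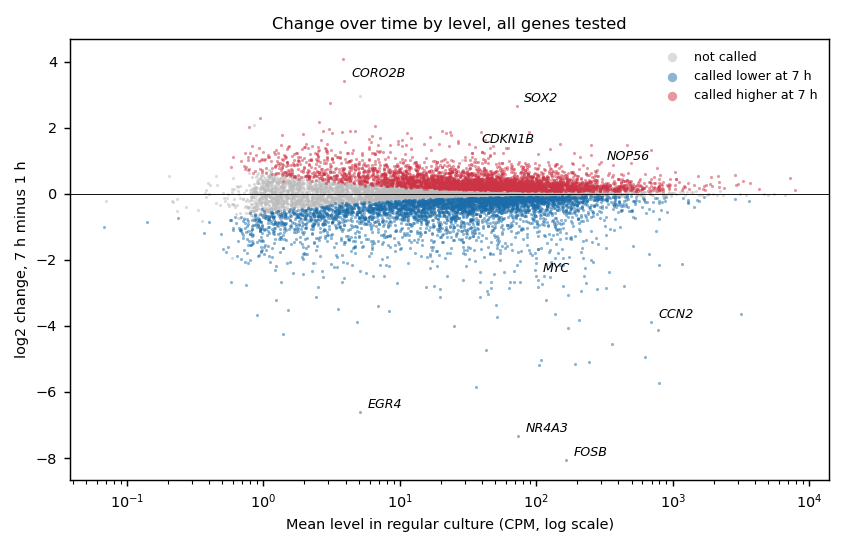
Each point is 1 of the 13028 genes tested, plotted by its mean level in regular culture (x axis, CPM, log scale) and its log2 change from 1 h to 7 h (y axis), with 4006 genes called higher in red, 4007 called lower in blue and the rest in grey. The lower side reaches -8.05 (FOSB), and the labelled rises CORO2B and SOX2 lie at 3.41 and 2.67.

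The regular culture libraries held 31645935 and 43542999 reads in listed genes at 1 h and 45811965 and 43081914 at 7 h. Levels are in CPM, reads scaled by the library size behind the deposited values, and 3 reads corresponded to 0.0626 to 0.0912 CPM in these libraries. That size was 1.04 to 1.05 times the listed reads in regular culture. In treated cells at 7 h it was 0.838 and 0.846 times the listed reads, so it is not a plain total of reads. Library pairs of a group correlated across genes with r of 0.996 to 0.997, and differed by 2.79 to 3.62 times the variance of pure counting, so each pair held separate libraries. As RNA was measured in bulk, fewer cells of a kind and less RNA per cell cannot be told apart.

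FOSB, a FOS family subunit of the AP-1 transcription factor, fell furthest. Its level was 356.9 and 302.1 CPM in the 1 h libraries and 1.23 and 1.15 CPM in the 7 h libraries, a 277.0-fold drop (log2 change -8.05, SE 0.06, limma adjusted p = 5.15e-25). NR4A3, an orphan nuclear receptor, went from 158.9 and 134.8 to 0.939 and 0.794 CPM, with a log2 change of -7.32 (SE 0.08). Both genes were thus abundant in each early library and near 1 CPM in each late one.

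EGR4, a zinc finger factor of the EGR family, was nearly lost. It stood at 10.8 and 9.53 CPM at 1 h and at 0.0418 and 0.0662 CPM at 7 h, which is at or below the level of 3 reads. The change rests on 786 reads against 5, or 187.6 times fewer after scaling, with 95% limits of 80.05 and 579.4 that cover counting error only. ARC, a neuronal plasticity protein that is also an immediate early gene, fell from 73.8 and 67.7 to 1.13 and 1.21 CPM (log2 change -5.86).

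The remaining members of the NR4A and EGR families moved the same way. NR4A1 dropped from 1595 and 1526 to 30.7 and 28.6 CPM, and EGR1 from 1208 and 1216 to 39.8 and 39.5 CPM. EGR2 fell by 5.17 on the log2 scale, EGR3 by 4.54 and NR4A2 by 2.61, so NR4A2, at 187.4 and 167.6 against 27.4 and 30.5 CPM, kept the most of its 1 h level. All 8 measured members of this EGR, NR4A and ARC list fell at least 2-fold, where 4.70% of all genes did. Their median log2 change was -5.44, beside 0.00 for all genes tested, and their summed level went from 4154 and 3989 to 134.1 and 136.8 CPM.

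AP-1 is a dimer of FOS and JUN family proteins, and 7 of its 8 measured genes fell at least 2-fold. JUNB fell the most after FOSB, from 382.1 and 370 to 10.3 and 10.7 CPM (log2 change -5.16). FOS followed with 46.9 and 46.7 against 2.40 and 3.38 CPM (log2 change -4.01). JUND, JUN and FOSL2 dropped 7.29-fold, 6.89-fold and 6.496-fold.

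FOSL1 (also called FRA-1) kept a high level. Its 1032 and 1053 CPM at 1 h became 488.3 and 456 CPM at 7 h, a log2 change of -1.14. BATF3, a partner of JUN proteins, was the single member that rose, from 4.26 and 4.62 to 7.70 and 6.93 CPM (log2 change 0.71, limma adjusted p = 2.40e-05). The members of the family thus fell to unequal degrees, or rose in 1 case.

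**Figure D2:**
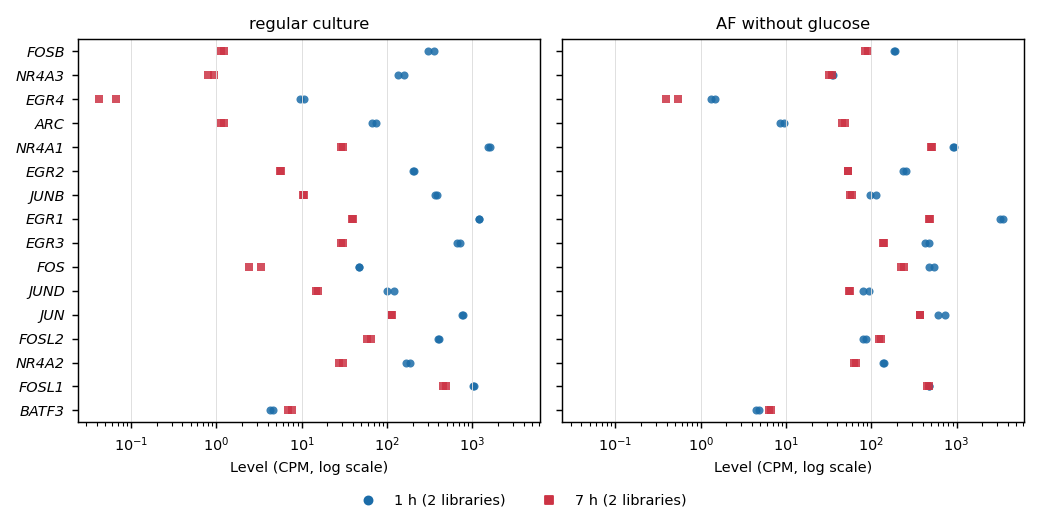
The 8 EGR, NR4A and ARC genes and the 8 AP-1 genes are ordered by their change in regular culture, with 1 point per library (blue circles 1 h, red squares 7 h) and the level in CPM on a log scale, for regular culture on the left and AF without glucose on the right. In regular culture 15 of the 16 genes lie lower in both 7 h libraries than in both 1 h libraries, where libraries of the 2 times did not overlap for 81.7% of all genes tested, and in treated cells ARC, FOSL2 and BATF3 lie higher at 7 h.

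Of 28 other immediate early genes, 26 fell (24 of them at least 2-fold) and 1 rose, with a median log2 change of -2.05. ATF3, a stress-induced member of the ATF/CREB family, went from 217.7 and 204.2 to 6.24 and 6.44 CPM. CSRNP1, a nuclear protein first described as an axin-induced gene, dropped 14.3-fold and IER2 12.5-fold. PLK2, a polo-like kinase counted among serum-induced genes, went the other way, from 153.2 and 154.9 to 252.8 and 263.6 CPM (log2 change 0.74).

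MAFF, from the same list, and KDM6B, from none, are named after their values were seen. KDM6B, a histone H3 lysine 27 demethylase, fell from 326 and 318.3 to 20 and 18.1 CPM. MAFF, a small MAF factor, fell from 212.2 and 210.9 to 23.7 and 21.7 CPM.

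Lists defined by the signals upstream also held mostly genes that fell. In the cAMP and CREB list, of which FOSB, NR4A1, NR4A2, NR4A3 and SIK1 are also in the lists above, 10 of 12 genes fell, 9 at least 2-fold, and the median was -2.12. In the glucocorticoid response list 7 of 8 fell and the median was -2.65. PER1, KLF9, SGK1, DUSP1 and ERRFI1 of that list are also counted in other lists given here. CEBPD, a C/EBP transcription factor, went from 7.30 and 5.68 to 0.584 and 0.463 CPM, and PER1, a circadian repressor that glucocorticoids induce, from 77.3 and 75.8 to 10.2 and 9.75 CPM. FKBP5, a chaperone of the glucocorticoid receptor and another classic target, rose slightly, by 0.28 on the log2 scale.

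Negative regulators of MAP kinase signalling, themselves induced by it, fell in 15 of 17 cases, 9 of them at least 2-fold, with a median of -1.30. ERRFI1, an inhibitor of the EGF receptor, went from 381.7 and 373.9 to 51.0 and 47.5 CPM. The dual-specificity phosphatases DUSP1 and DUSP5 dropped 7.16-fold and 6.41-fold. RASA1, a RAS GTPase activator, was the only one to rise, by 0.16 on the log2 scale.

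Among 13 KLF zinc finger factors, 11 fell and none rose, with a median of -1.18. KLF10 went from 509 and 470 to 67.1 and 65.0 CPM and KLF5 from 142.5 and 122.6 to 20.2 and 21.1 CPM. KLF7 dropped 4.26-fold.

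Chemokine and cytokine genes fell as a group: all 12 measured were lower at 7 h, 11 of them at least 2-fold, and their summed level went from 6942 and 6941 to 710.1 and 649.2 CPM. LIF, the leukaemia inhibitory factor, made up most of that sum with 5899 and 5918 CPM at 1 h and 502.6 and 452.9 CPM at 7 h. CXCL8 (interleukin 8) dropped from 470 and 469.8 to 14.3 and 12.9 CPM, and PTGS2, the inducible cyclooxygenase kept in the same list, from 91.8 and 74.5 to 3.09 and 3.07 CPM. CXCL1, whose promoter is shown above and which is named after its values were seen, fell from 93.6 and 92.4 to 9.37 and 8.58 CPM.

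NF-kB subunits and feedback inhibitors fell in 14 of 18 cases, with a median of -0.94. TNFAIP3 (A20), a ubiquitin-editing inhibitor of the pathway, went from 68.8 and 69.3 to 8.18 and 7.55 CPM. REL, a subunit, fell from 79.2 and 82.7 to 12.4 and 12.9 CPM, and BIRC3 dropped 3.81-fold. NFKBIA, the inhibitor IkB alpha, named after its values were seen, fell from 78.9 and 76.1 to 27.9 and 29.2 CPM. TNIP1 rose by 0.19, a call that was lost when 1 h library A was left out (0.13).

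Secreted growth factors split. Of 21 genes, 13 fell and 3 rose (10 and 5 with quantile normalization), and the median was -0.47. Among all genes 30.8% fell and 30.7% rose. HBEGF, an EGF receptor ligand, dropped from 96.9 and 95.9 to 7.22 and 7.15 CPM, EDN1 (endothelin 1) from 14.2 and 16.5 to 1.17 and 1.35 CPM, and GDF15 7.42-fold. STC2, NRG1 and VEGFC rose at least 2-fold, STC2 from 31.4 and 35.6 to 88.0 and 85.7 CPM, NRG1 from 27.9 and 30.7 to 69.5 and 66.9 CPM, and VEGFC from 1.85 and 2.39 to 5.07 and 5.23 CPM. The ligands of a single list therefore changed in opposite directions.

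TGF-beta and BMP feedback genes also divided. Of 12, 7 fell and 3 rose, where 30.8% of all genes fell and 30.7% rose. SKIL, a repressor of SMAD proteins, dropped 3.60-fold, ID4 2.76-fold and the inhibitory SMAD7 2.26-fold. The ID2 and ID3 genes, inhibitors of basic helix-loop-helix factors, rose by 0.56 and 0.54 and the decoy receptor BAMBI by 0.29 on the log2 scale.

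Of 7 Notch pathway genes 4 fell and none rose (57.1% called), where 30.8% of all genes fell and 30.7% rose (61.5% called). The ligand JAG1 fell the most, from 326.3 and 329.5 to 97.9 and 93.6 CPM. The Notch effector HES1 dropped 1.95-fold. Clock genes fell in 12 of 17 cases and rose in 2, with a median of -0.59. The rises were HLF, whose call was lost without 1 h library A (0.28) or without 7 h library B (0.29), and BMAL1, whose call was lost without 1 h library B (0.23), and both calls were lost with no intensity trend. BHLHE40, a clock repressor also induced by hypoxia, went from 572.3 and 558.9 to 78.4 and 78.8 CPM, and PER2 from 47.0 and 46.2 to 13.8 and 12.6 CPM.

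CCN2, a matricellular protein and a standard readout of YAP and TAZ activity, fell from 1330 and 1282 to 90.2 and 87.8 CPM (log2 change -3.87, SE 0.03, limma adjusted p = 2.62e-24). CCN1, its paralogue, went from 1495 and 1466 to 85.3 and 83.3 CPM. ANKRD1, a cardiac ankyrin repeat protein and another classic target, dropped from 9.21 and 9.02 to 0.480 and 0.684 CPM. Every library, at both times, is of cells with the TAZ(4SA) form.

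As a list, the 23 YAP/TAZ targets did not move one way: 13 fell and 10 rose, all 23 passed the test, and the median was -0.28. The strong changes were mostly falls, with 9 genes at least 2-fold lower and 2 at least 2-fold higher. After CCN1, CCN2 and ANKRD1 came NUAK2, a stress-activated kinase (8.23-fold lower), GADD45A, a growth arrest gene (7.12-fold), F3, tissue factor (6.46-fold), AMOTL2, which retains YAP in the cytoplasm (4.22-fold), LATS2, the kinase that phosphorylates YAP and TAZ (3.57-fold), and TGFB2 (2.03-fold). AJUBA, FJX1, RBMS3 and PTPN14 fell by 0.52, 0.48, 0.28 and 0.17 on the log2 scale.

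Targets in the same list that rose were led by IGFBP3, an IGF-binding protein, from 26.4 and 24.8 to 66.5 and 65.7 CPM. CRIM1, a cysteine-rich transmembrane protein, went from 152.5 and 155.6 to 356.7 and 339.4 CPM. MYOF, FOXF2, NT5E, ARHGEF17, DOCK5, AXL and CCDC80 rose by 0.93, 0.88, 0.58, 0.49, 0.47, 0.44 and 0.24 on the log2 scale. ASAP1 also passed, at 0.09, but its call was lost without either 7 h library or without 1 h library B. WWTR1, the gene of TAZ, fell from 416.2 and 394.6 to 243.3 and 251.8 CPM (log2 change -0.71), and the files do not separate the native transcript from the TAZ(4SA) transgene.

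**Figure D3:**
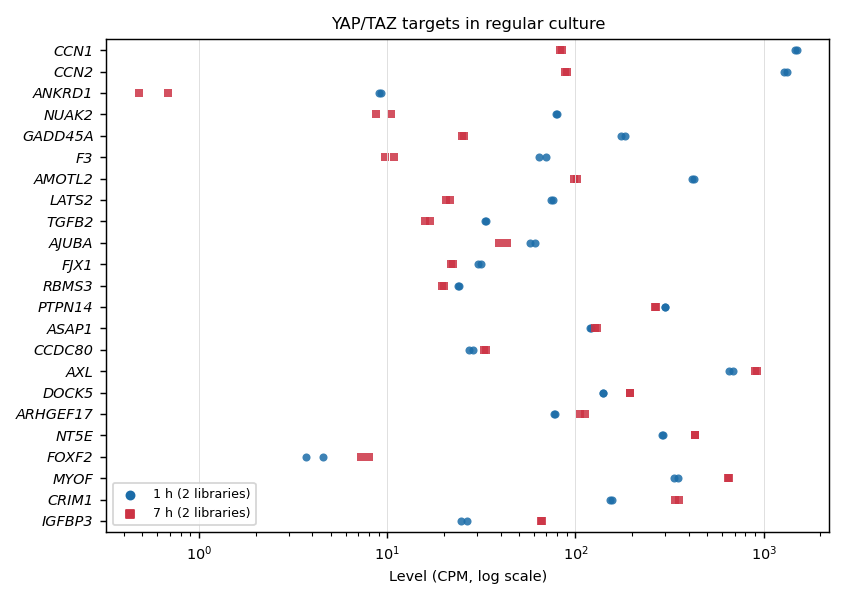
The 23 YAP/TAZ targets are ordered from the deepest fall (CCN1) to the highest rise (IGFBP3), with the level of each in CPM on a log scale and 1 point per library (blue circles 1 h, red squares 7 h). The libraries of the 2 times do not overlap for any of the 23 genes, a separation seen in 81.7% of all genes tested.

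SRF controls both immediate early genes and actin cytoskeleton genes, and in the list of the latter the directions were nearly balanced. Of 30 genes 9 fell and 11 rose (66.7% called, beside 61.5% of all genes), with a median of 0.01. SRF itself fell from 211.2 and 217.6 to 38.1 and 36.8 CPM. ZYX (zyxin) and VCL (vinculin), proteins of focal adhesions, dropped 2.98-fold and 2.20-fold, whereas the myosin heavy chain MYH9 rose from 2192 and 2411 to 3479 and 3295 CPM, and TPM3 and ACTN1 by 0.36 and 0.34 on the log2 scale.

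Promoter letters were counted in the RefSeq windows of 300 bases, from 250 before to 50 after the start, on both strands. The NF-kB element, by its usual degenerate pattern, was in 48% of the 25 promoters matched for the NF-kB and chemokine lists, in 6.44% of those of all genes tested and in 5.72% of all 27305 promoters given. GGAATG was in 41.2% of 17 promoters of YAP/TAZ targets, against 10.8% and 14.1%. The serum response element core was in 3 (9.38%) of 32 promoters of the AP-1, EGR, NR4A, ARC and other immediate early genes, against 1.09% and 1.28%. Among these 3 are EGR1 and SRF, shown above.

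TGACGTCA was in 3 (9.38%) of the same 32 promoters, against 3.35% of the genes tested and 1.98% of all. The AP-1 site TGAGTCA was in 2 (6.25%), against 2.995% and 4.92%. Across the 476 promoters matched for all genes at least 2-fold lower, the shares lay nearer to the background. They were 10.1% for the NF-kB element, 12.2% for GGAATG, 1.68% for the serum response element core, 4.62% for TGACGTCA and 5.04% for TGAGTCA. In the 150 promoters of genes at least 2-fold higher the same shares were 8.67%, 12.7%, 0.667%, 2% and 2.67%. GGAATG was thus about as common in large rises as in large falls. These are counts of letters in a window and were not tested. PPP1R15A, the stress-inducible phosphatase subunit shown above for its TGACGTCA and named after its values were seen, fell from 367.9 and 389.7 to 139.9 and 133.2 CPM.

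MYC, the growth-promoting transcription factor that is itself an early response gene, fell from 165.2 and 172.3 to 31.4 and 28.7 CPM (log2 change -2.49, limma adjusted p = 1.46e-19). Genes of the processes that MYC is known to promote were mostly higher at 7 h. Of 42 ribosome biogenesis genes 38 rose and 1 fell, where 30.7% of all genes rose, although none reached 2-fold and the median was 0.43. Their summed level went from 4193 and 4351 to 5965 and 5967 CPM.

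NOP56, a core protein of box C/D small nucleolar ribonucleoproteins, went from 202.5 and 201.3 to 373 and 380.2 CPM. DKC1, the pseudouridine synthase dyskerin, rose from 93.7 and 105.4 to 178.6 and 174.6 CPM, and MYBBP1A 1.75-fold. UTP20 and NAT10, whose promoters are shown above and which were named after their values were seen, rose from 124 and 125 to 196.2 and 192.5 CPM and from 61.3 and 65.0 to 91.8 and 88.8 CPM. PPAN, a ribosome assembly factor, was the single fall, from 5.29 and 5.55 to 3.76 and 3.13 CPM. CACGTG was in 34.3% of 35 ribosome biogenesis promoters, in 10.1% of those of all genes tested and in 7.44% of all promoters given. It was in 10% of 150 promoters of genes at least 2-fold higher and in 7.77% of 476 of genes at least 2-fold lower.

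All 17 polyamine and nucleotide synthesis genes rose, with a median of 0.40. CAD, which starts pyrimidine synthesis, went from 116 and 120.9 to 195.2 and 185.6 CPM. ODC1 and AMD1, the enzymes that set polyamine supply, rose 1.57-fold and 1.54-fold. Cytosolic ribosomal proteins rose in 64 of 71 cases and fell in 1 (RPS15, by 0.26), by small amounts with a median of 0.18, and reads of these genes may be shared with their many near-identical pseudogenes.

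Cytosolic tRNA synthetases were mixed, with 12 of 19 higher and 4 lower (12 and 2 with quantile normalization). Among all genes 30.7% rose and 30.8% fell. FARSB, a subunit of the phenylalanine enzyme, rose by 0.57, LARS1 by 0.41 and FARSA, the other phenylalanine subunit, by 0.40 on the log2 scale. WARS1 and AARS1 fell by 0.49 and 0.22.

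**Figure D4:**
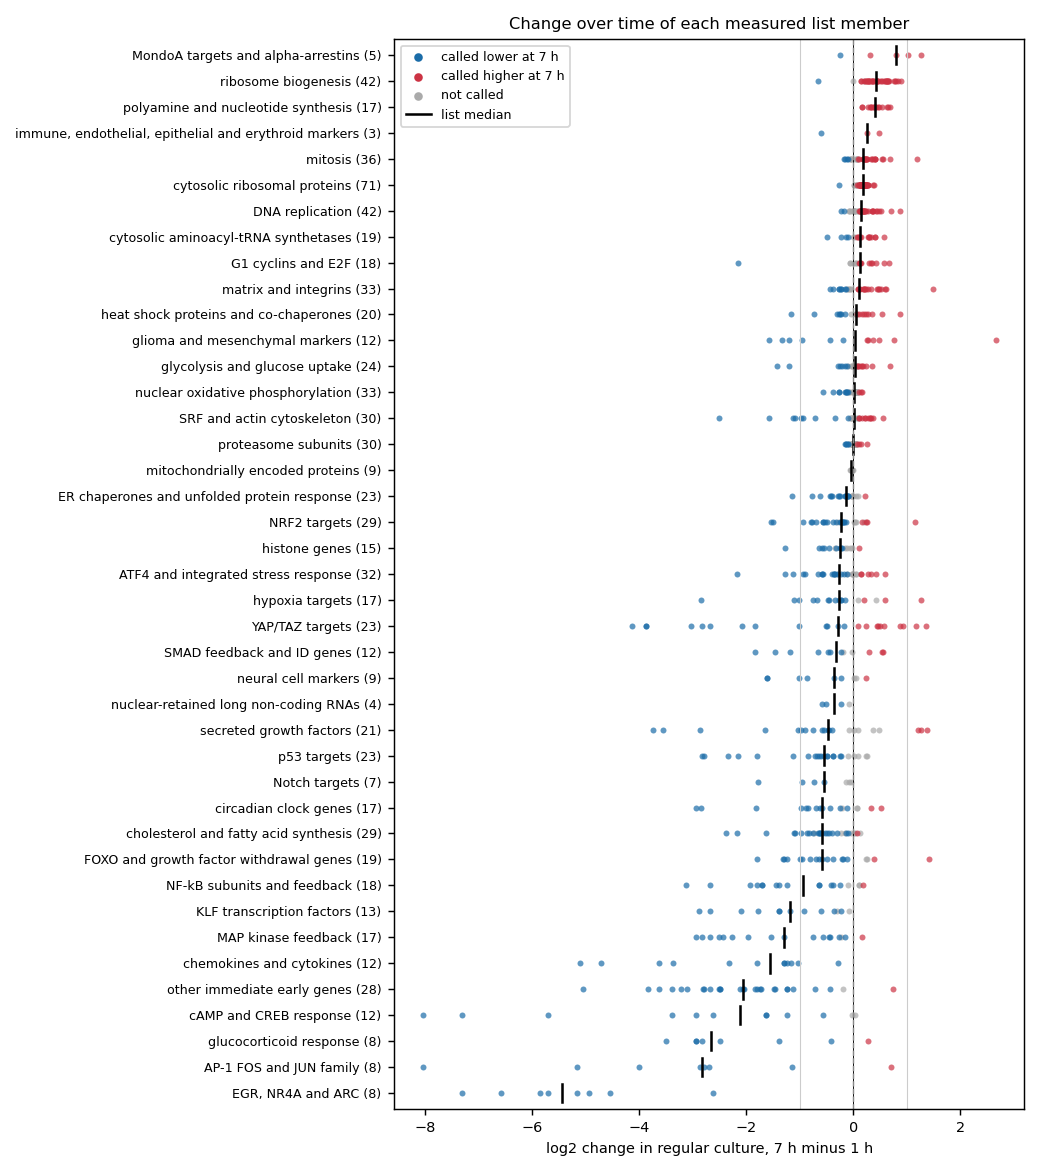
Each row is a gene list with its number of tested genes in brackets, each point is a member's log2 change from 1 h to 7 h in regular culture (blue called lower, red called higher, grey not called), the short black bars are list medians and the dashed line is the median of all genes tested, 0.00. Immediate early lists lie at the bottom, from a median of -5.44, while the median of ribosome biogenesis lies at 0.43. The lists overlap, and some genes, among them FOSB, appear in more than 1 row.

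Cell cycle lists held more genes that rose than fell, where 30.7% of all genes rose and 30.8% fell. Of 18 G1 and E2F genes 11 rose and 1 fell, of 42 DNA replication genes 27 rose and 2 fell, and of 36 mitosis genes 22 rose and 4 fell, with medians of 0.13, 0.15 and 0.19. CDKN1A, the inhibitor p21, was the fall in the first list, from 259.2 and 258 to 57.3 and 59.0 CPM. SKP2, the ubiquitin ligase subunit that targets p27, rose from 32.2 and 29.6 to 49.0 and 49.7 CPM.

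E2F2 rose by 0.58 on the log2 scale and the phosphatase CDC25A by 0.43. Among replication genes, UHRF1, which maintains DNA methylation, went from 96.5 and 98.4 to 176.7 and 179.8 CPM, ORC1 rose 1.62-fold and GINS1 1.43-fold. POLD1 and TYMS fell by 0.23 and 0.17 on the log2 scale. CCNF, cyclin F, was the single mitosis gene to rise 2-fold, from 62.3 and 63.5 to 145.9 and 142.4 CPM, ahead of CDCA8 (1.62-fold) and the kinase AURKA (1.47-fold), while NUSAP1 fell by 0.18. No measurement of cell number or cycle phase is part of the files.

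Genes that FOXO factors and growth factor withdrawal are known to raise mostly fell, 15 of 19 against 2 that rose, with a median of -0.59. BCL6 dropped from 230.2 and 219.2 to 64.8 and 64.4 CPM, FBXO32 2.48-fold and the insulin receptor adaptor IRS2 2.47-fold. CDKN1B, the inhibitor p27, rose against that direction, from 20.2 and 18.4 to 49.8 and 53.2 CPM (log2 change 1.42, limma adjusted p = 1.55e-13). The paired inhibitors p21 and p27 thus changed in opposite directions.

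MondoA is a glucose-sensing transcription factor encoded by MLXIP. The list of its targets and the alpha-arrestins held 5 genes, MLXIP itself, TXNIP, ARRDC2, ARRDC3 and ARRDC4. Of these 4 rose and 1 fell (4 and 0 with quantile normalization), where 30.7% of all genes rose and 30.8% fell. TXNIP, an inhibitor of glucose uptake, went from 23.0 and 24.1 to 56.7 and 57.1 CPM. ARRDC4 rose from 1.73 and 1.88 to 3.82 and 3.66 CPM and ARRDC3 from 19.2 and 19.5 to 32.2 and 35.5 CPM. ARRDC2 stood at 13.49 and 13.98 CPM at 1 h and 11.9 and 11.2 CPM at 7 h, and its call as lower was lost without 1 h library B or without 7 h library B.

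Cholesterol and fatty acid synthesis genes fell in 21 of 29 cases and rose in 1, with a median of -0.59. INSIG1, the sterol-regulated retention factor, dropped 4.54-fold and SREBF1, a master regulator of lipid synthesis, 3.12-fold.

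Glycolysis and glucose uptake genes were balanced, with 9 of 24 higher and 7 lower (66.7% called, beside 61.5% of all genes) and a median of 0.03. PFKP, a phosphofructokinase subunit, rose 1.62-fold, the lactate carrier SLC16A1 1.29-fold and ENO1 by 0.25 on the log2 scale. PFKFB3, which makes the activator of phosphofructokinase, fell from 326.9 and 315.7 to 121.7 and 118.9 CPM and the glucose transporter SLC2A3 from 24.7 and 23.7 to 10.7 and 10.3 CPM. GAPDH stood at 5007 and 5124 CPM at 1 h and 4932 and 4947 CPM at 7 h (log2 change -0.04, limma adjusted p = 0.308), with a sign that flipped under quantile normalization (0.08). ACTB was at 0.11, and at -0.09 under that normalization.

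In 3 stress lists more genes fell than rose, where 30.8% of all genes fell and 30.7% rose. In the ATF4 list 17 of 32 genes fell and 6 rose, in the NRF2 list 20 of 29 fell and 4 rose, and in the list of the unfolded protein response 16 of 23 fell and 1 rose (14 and 3 with median-of-ratios scaling, 15 and 3 with scaling to the total), with medians of -0.26, -0.22 and -0.13. CHAC1, which degrades glutathione, dropped 4.59-fold, the C/EBP factor CEBPB 2.42-fold and SESN2 2.20-fold. DDIT4, an inhibitor of mTORC1, rose against them, from 24.7 and 27.4 to 37.6 and 41.4 CPM.

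In the NRF2 list the aldo-keto reductases AKR1C3, AKR1C2 and AKR1C1 dropped 2.93-fold, 2.89-fold and 1.92-fold, but their sequences are so alike that reads may be shared among them. The transporter ABCC3 rose from 27.8 and 29.2 to 64.9 and 62.8 CPM. HERPUD1, a component of ER-associated degradation, fell from 45.7 and 46.7 to 21.4 and 20.7 CPM, XBP1 1.71-fold and DNAJB9 1.54-fold.

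Of 17 hypoxia targets 12 fell and 3 rose, with a median of -0.27, where 30.8% of all genes fell and 30.7% rose. ADM (adrenomedullin) dropped 2.17-fold and the demethylase KDM3A 2.03-fold, whereas the lipid droplet protein HILPDA rose from 4.23 and 4.62 to 10.8 and 10.5 CPM. Of 23 p53 targets 18 fell and none rose, with a median of -0.54. BTG2, an antiproliferative gene, went from 31.7 and 30.5 to 4.38 and 4.52 CPM and BBC3 (PUMA), a killer of the BCL2 family, from 4.10 and 4.91 to 0.960 and 0.750 CPM.

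Heat shock protein genes did not share a direction, with 9 of 20 higher, 7 lower and a median of 0.05. Of all genes 30.7% rose and 30.8% fell. HSPA8, the constitutive chaperone, rose from 1748 and 1766 to 2608 and 2497 CPM and HSPD1 1.28-fold. HSPB8 fell 2.24-fold, DNAJB1 1.67-fold and HSPB1 1.23-fold. HSPA6, at 1.06 and 0.774 CPM at 1 h, was 1.77 and 1.63 CPM at 7 h.

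Energy and protein turnover genes moved little, and smaller shares of them passed the test than the 61.5% of all genes. None of 9 genes encoded in mitochondria passed the test (2 lower and 1 higher with quantile normalization), and their log2 changes ran from -0.06 to 0.00. Of 33 nuclear oxidative phosphorylation genes 9 fell and 3 rose, a split that became 7 and 8 with quantile normalization, 8 and 5 with scaling to the total and 7 and 6 with median-of-ratios scaling, so no direction is given. COX5B fell most, from 77.7 and 75.0 to 55.1 and 48.7 CPM. Of 30 proteasome subunits 5 fell and 4 rose (4 and 9 with quantile normalization), and the median was 0.00.

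Matrix and integrin genes rose in 19 of 33 cases and fell in 8, with a median of 0.11. Among all genes 30.7% rose and 30.8% fell. COL6A3, a chain of collagen VI, went from 16.96 and 16.76 to 48.9 and 46.7 CPM. COL4A1 rose 1.52-fold and the collagen receptor subunit ITGA2 1.51-fold, while ITGB3 and ITGA6 fell by 0.42 and 0.38 and the laminin chain LAMC1 by 0.27 on the log2 scale. Of 15 histone genes 9 fell and 1 rose (66.7% called), where 30.8% of all genes fell and 30.7% rose (61.5% called). H2AC6 fell the most, from 3.89 and 4.22 to 1.52 and 1.77 CPM. Of 4 nuclear-retained long non-coding RNAs 3 fell, KCNQ1OT1 by 0.58, NEAT1 by 0.24 and MALAT1 by 0.50, the last a call lost without 1 h library B (-0.37), without 7 h library B (-0.47), and with robust moderation or no intensity trend.

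The 12 largest rises, taken from genes with at least 5 CPM in the higher group, were from varied functions and smaller than the 12 largest falls. SOX2, a stem cell transcription factor, rose from 21.2 and 18.1 to 119.7 and 130 CPM (log2 change 2.67, SE 0.08, limma adjusted p = 2.94e-16). SOX2 lies inside the non-coding gene SOX2-OT, and without strand the reads of overlapping genes cannot be told apart. CORO2B, a coronin that binds actin, went from 0.699 and 0.553 to 7.56 and 6.73 CPM.

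AJAP1, an adherens junction protein, rose from 0.973 and 0.597 to 5.55 and 5.25 CPM. PPARGC1B, a co-activator of mitochondrial genes, went from 1.79 and 1.81 to 7.06 and 6.58 CPM. The ligand WNT5B rose 3.71-fold, from 8.60 and 8.63 to 32.3 and 31.6 CPM, and MLPH, a melanosome transport protein, 3.68-fold, from 36.0 and 39.4 to 139.9 and 137.3 CPM.

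ALPL, an alkaline phosphatase, CPA4, a carboxypeptidase, and GPR158, an orphan receptor, rose 3.71-fold, 3.63-fold and 3.66-fold. NOMO1 went from 2.28 and 2.79 to 10.2 and 10.9 CPM, but it has near-identical copies, and its call was lost with robust variance moderation (limma adjusted p = 0.0566). RNH1, a ribonuclease inhibitor, had the highest fitted rise, at 4.06, with 7 h libraries that disagreed, at 1.32 and 13.6 CPM after 0.213 and 0.199 CPM.

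The RNH1 rise was 2.41 without 7 h library B and 5.72 without 7 h library A, and its call was lost with robust variance moderation (limma adjusted p = 0.0776). It compares 678 reads with 16, which is 35.5 times as many after scaling (95% limits 21.7 and 62.5, which cover counting error only and not the gap between the 7 h libraries). NAP1L4, a histone chaperone, also had uneven 7 h libraries, at 23.7 and 12.1 CPM after 4.59 and 4.84 CPM.

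**Figure D5:**
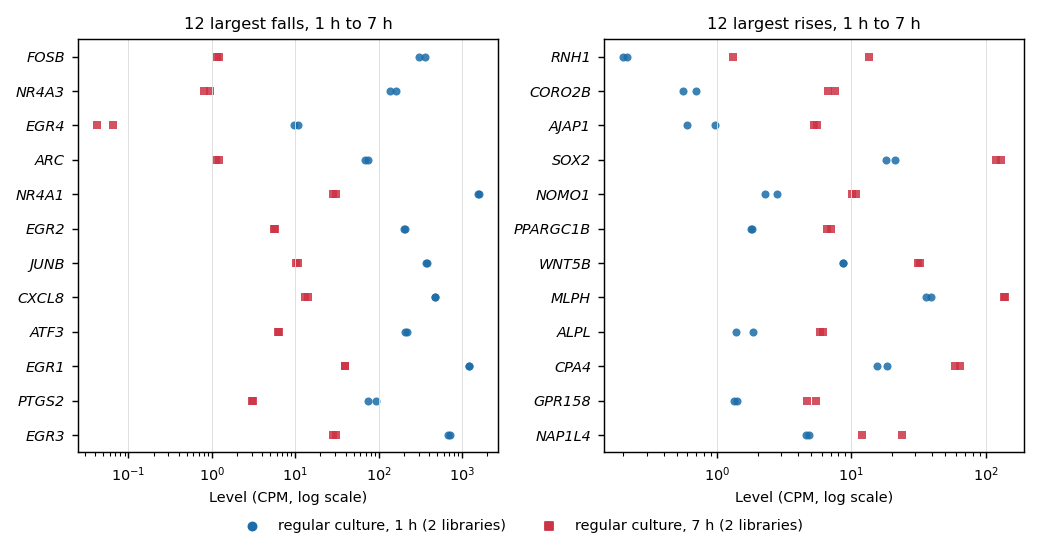
The 12 genes with the largest falls (left) and rises (right) by log2 change, with the level in CPM on a log scale and 1 point per library (blue circles 1 h, red squares 7 h). The pairs of points are tight for all falls except EGR4, which lies at 0.0418 and 0.0662 CPM at 7 h, and wide for RNH1 and NAP1L4 at 7 h.

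Of 15 markers of the labelled cells 12 were measured, and CHI3L1, SOX9 and AQP4 were not among the genes listed. VIM stood at 2867 and 2843 CPM at 1 h and 3732 and 3671 CPM at 7 h, CD44 at 963.4 and 943.2 against 1143 and 1144 CPM, and NES at 1329 and 1440 against 1206 and 1210 CPM, while GFAP, a glial marker, was at 0.942 and 1.08 against 0.438 and 0.552 CPM. Of 12 glioma and mesenchymal markers 6 rose, among them SOX2, EGFR (1.69-fold) and FN1 (1.39-fold), and 6 fell. PDGFRA and OLIG2 dropped 2.98-fold and 2.30-fold, and S100B went from 236.1 and 235.2 to 94.0 and 93.6 CPM.

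Of 9 measured neural cell markers 6 fell and 1 rose, with the myelin genes MAG and MBP lower by 1.61 and 1.61 on the log2 scale. The summed level of this list was 753.2 and 712.5 CPM at 1 h and 568.9 and 563.3 CPM at 7 h. Of 18 markers of immune, endothelial, epithelial and erythroid cells only CD68, KRT14 and VWF were in the table, and the other 15 were not analysed here. Their sum was 14.8 and 15.9 CPM at 1 h and 19.1 and 17.5 CPM at 7 h, and their part in the results was not tested.

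In AF without glucose the same interval was also measured. The test of the difference between the 2 changes over time, which share no library, passed for 9606 genes (73.7%), beside 10114 (77.6%) that changed over time in treated cells. Of these, 4809 were higher at 7 h (36.9%) and 5305 lower (40.7%), 930 of them at least 2-fold higher (7.14%) and 1135 at least 2-fold lower (8.71%). Of the 612 genes at least 2-fold lower in regular culture, 238 rose and 257 fell in treated cells, with a median of -0.05. For changes of any size these shares are close to those of all genes. At least 2-fold, 112 of the 612 rose and 93 fell in treated cells, larger shares than the 7.14% and 8.71% of all genes. Of the 202 at least 2-fold higher, 99 rose and 55 fell in treated cells, 42 and 27 of them at least 2-fold.

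The medians of treated cells for the EGR, NR4A and ARC list, the AP-1 list and the other immediate early genes were -1.31, -0.74 and 0.41. The mitosis list had a treated median of -1.35, beside 0.19 in regular culture, and the difference passed for all 36 of its genes. For ribosome biogenesis the treated median was 0.14, beside 0.43, and for YAP/TAZ targets -0.30, beside -0.28, with the difference passed for 19 of the 23. MYC rose by 1.18 in treated cells, and its difference from regular culture was 3.66 on the log2 scale. Changes in treated cells, these medians included, depend on the scaling. Scaling to the total adds log2 factors of 0.13 and 0.12 to the treated 1 h libraries and -0.25 and -0.24 to those at 7 h. In regular culture its factors run from 0.05 to 0.07. It thus lowers every treated change, and treated medians were not recomputed with it, so no direction is given for the treated ribosome biogenesis median.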

How the data were processed

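RNA-seq was made from total RNA with the SMART-Seq mRNA HT and Nextera XT kits, which do not mark strand, per the labels' protocols. HISAT2, edgeR and the build GRCh38 are named, without versions, per the submitters' processing notes. How reads were counted and low genes removed was not given in the sources used here. In the deposited table the authors gave log2 CPM values for 13036 genes, made with a prior that the lowest values put at 0.0522 CPM (2 reads in a mean library). With the prior removed, 100% of values lay within 0.1 of a whole read, and the sums of these reads are the depths given. Column headings name groups, not replicates, so libraries A and B have no order. A RefSeq table matched 12970 identifiers.

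Genes with at least 1 CPM in 2 libraries (13028, with 8 removed) entered a fit by limma (version 3.58.1, R 4.3.3) with an intensity trend and 1 mean per group over all 8 libraries, and p-values were Benjamini-Hochberg adjusted over all genes. The fit had 4 residual degrees of freedom. Fold changes are of log2(CPM + prior), which understates those of low genes; ratios given as fold are of mean CPM. On simulated data with the same dispersion for every gene, the fit recovered 64% of 50 changes of 1.25-fold, 90% of 1.5-fold and 98% of 2-fold. Spread is unequal between genes in the real libraries, so these shares may not hold there.

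The members, gene lists and rules were chosen with earlier results of these data known. Genes named are the 12 largest rises and falls that passed, had 5 CPM or more at the higher time, did not overlap and were no pseudogene, unnamed or antisense gene; a few genes whatever their result; all AP-1, EGR, NR4A, ARC and YAP/TAZ genes; up to 3 passing rises and falls per other list; and the 6 largest differences from treated cells. Weak calls among them are left to the counts, and genes named after their values were seen are so marked; a few genes that the rule names are not reported here. Alternatives changed the libraries fitted, scaling, pseudocount, filter, variance model, voom weights on recovered reads, a 1.5-fold minimum change and the libraries left out. Promoter windows were matched by gene identifier for 10451 of the 13028 genes.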

Additional observations from a re-analysis of the deposited data

Results flagged for a closer look

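The change from 1 h to 7 h differed between treated cells and regular culture, by the test of the difference itself, for the 8 genes given here, which are the 6 largest differences among the genes named and the remaining markers EGR4 and CCN2. All differences are treated minus regular on the log2 scale, with limma adjusted p-values. The genes named include the largest falls in regular culture. Those falls are part of the difference, so this choice favours large positive values.

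ANKRD1 had the largest difference, 9.38 (SE 0.32, limma adjusted p = 1.80e-15). It fell from a mean of 9.12 to 0.582 CPM in regular culture and rose from 0.0979 ± 0.0229 to 6.72 ± 0.378 CPM (SD, n = 2) in treated cells, where the 1 h level is that of a few reads. ARC differed by 8.25 (SE 0.12), with treated means of 8.98 CPM at 1 h and 47.5 CPM at 7 h.

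CXCL8 differed by 7.62 (SE 0.10), with treated means of 9.39 and 53.9 CPM. PTGS2 differed by 6.35 (SE 0.10), with treated means of 62.7 and 193 CPM. These genes therefore rose in treated cells over the hours in which they fell in regular culture.

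NR4A3 differed by 7.25 (SE 0.12) and FOSB by 6.97 (SE 0.09). In treated cells NR4A3 had means of 35.1 and 33.4 CPM, and FOSB went from 186.4 to 88.3 CPM. EGR4 differed by 5.08 (SE 0.39), with treated means of 1.41 and 0.465 CPM, and CCN2 by 3.29 (SE 0.05), with treated means of 58.1 and 38.6 CPM beside 1306 CPM in regular culture at 1 h. Differences for the genes of small treated levels depend on the prior.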

How the results depend on the processing

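With the change tested against 1.5-fold, 964 genes passed (253 higher, 711 lower) in place of 8013, and 3646 in place of 9606 for the difference from treated cells. The 202 genes at least 2-fold higher became 116 with a filter of 5 CPM, 129 with a pseudocount of 0.5 CPM and 92 with 1 CPM. Leaving out 1 library gave 6759 to 7215 calls (3374 to 3598 higher, 3385 to 3617 lower), 184 to 227 at least 2-fold higher, 617 to 648 at least 2-fold lower, and 9054 to 9436 for the difference; a lone library was then assumed to vary like the other groups. Quantile normalization gave 4649 higher and 3440 lower genes and reversed GAPDH (0.0765) and ACTB (-0.0896). A fit with voom weights on the recovered reads called 8324 genes. Other counts stayed within 1.5 times under the alternatives run. No paired analysis was possible because the column headings carry no replicate number. With 2 libraries per group, spread is estimated mostly by pooling over genes, and levels near 3 reads limit EGR4 at 7 h and ANKRD1 in treated cells at 1 h.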

Other observations

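Genes of the oligodendrocyte and Schwann cell lineage, a list assembled after values were seen and so given with no test of the list, were mostly lower at 7 h in regular culture. Of 30 tested members 25 fell, 22 of them at least 2-fold, and 4 rose, where 30.8% of all genes fell, 4.70% at least 2-fold, and 30.7% rose. The median log2 change was -1.20 beside -0.45 in treated cells. The transcription factor NKX2-2 went from 67.8 and 62.9 to 12.7 and 12.3 CPM, SOX8 from 28.1 and 26.7 to 5.01 and 6.53 CPM, and the neuregulin receptor ERBB3 from 459 and 456.2 to 187.9 and 200 CPM. SOX10, which is known to drive many of these genes, rose from 560.9 and 577.2 to 988.4 and 951.9 CPM, and the neurotrophin receptor NGFR from 320.4 and 351.8 to 464.1 and 451.7 CPM.

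HOX genes, homeobox factors of body position and likewise a list assembled after values were seen, leaned to the other side. Of 29 tested 15 rose and 1 fell, where 30.7% and 30.8% of all genes did, with a median of 0.29 beside -0.82 in treated cells. The 3 that rose at least 2-fold all lie in the HOXB cluster: HOXB3, from 5.41 and 6.08 to 18.4 and 18.4 CPM, HOXB6, from 11.8 and 12.6 to 33.3 and 33.8 CPM, and HOXB5, from 4.19 and 4.11 to 9.77 and 10.2 CPM. HOXB9 of the same cluster fell by 0.41, and antisense genes in these clusters cannot be told apart without strand.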
